A study of Xenopus laevis and Xenopus tropicalis with 12 samples.

Results

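The subject is the comparison of vegetal with animal oocyte hemispheres of the frog Xenopus laevis. It uses 8 of the 12 libraries of the series, chosen by species from the labels, and 14517 of the 28165 gene models in the count files, the number that passed a filter on low counts. The 4 vegetal and the 4 animal libraries come from stage VI oocytes, the fully grown stage, of 2 females called A and B, with 2 batches of oocytes each (A_t1, A_t2, B_t1 and B_t2). Both hemispheres of a batch were separated by hand, so each vegetal library has an animal library of the same batch as its partner. The labels give no strain, treatment or age of the females. The labels do not say what t1 and t2 stand for, and the 2 batches of a female are not separate animals. The p-values set the mean hemisphere difference against the spread among these 4 pairs, moderated by the spread of the other models. The pairs were drawn from 2 animals. The labels give total RNA as the material and do not say whether polyadenylated RNA was selected.

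The frog oocyte is polar before fertilisation. Its pigmented animal hemisphere holds the nucleus, and its pale vegetal hemisphere holds most of the yolk and, under the cortex, the germ plasm from which germ cells form. Some mRNAs reach the vegetal cortex early in oogenesis with the mitochondrial cloud, others later along microtubules, and among them are determinants of germ cells, endoderm, mesoderm and the dorsal axis. Much of the mRNA of a full-grown oocyte is a maternal store that is used after fertilisation.

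The vegetal libraries held between 35565052 and 45235154 counts and the animal libraries between 30416352 and 44157292. A count above 0 was found for 17737 to 18230 models in vegetal libraries and for 18363 to 18791 in animal libraries. Levels are given as counts-per-million (CPM) on library sizes scaled with TMM factors, and are not corrected for transcript length. They are shares of each library, so a smaller amount of a transcript and a larger amount of the other RNA in that hemisphere cannot be told apart. A count of 0 in a library allows a level of up to 0.0656 to 0.0952 CPM (3 counts), a limit that covers counting error only. The 16 annotated oocyte and egg coat markers all passed the filter and summed to between 7204 and 9374 CPM in vegetal libraries, against 5831 to 6281 CPM in animal libraries. Of the other marker lists, blood and vessel genes summed to 19.3 to 49.4 CPM in vegetal and 19.6 to 48.2 CPM in animal libraries, and immune cell genes to 4.70 to 6.73 and 5.23 to 6.92 CPM. Connective tissue genes summed to 88.9 to 181 CPM in vegetal and 55.0 to 115 CPM in animal libraries, and follicle cell genes to 296 to 370 and 81.6 to 157 CPM. Most of the connective tissue sum was 1 gene, fn1, at a mean of 98.9 CPM. The median log2 fold change of the 6 tested connective tissue genes was -0.26. The follicle list without cyp17a1, a steroid hydroxylase that Xenopus oocytes are known to make themselves, summed to 1.81 to 5.86 CPM in vegetal and 2.49 to 6.28 CPM in animal libraries. A further 22 markers of these other cells had no more than 26 counts in any library. The part of other cells in the results was not tested.

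The first question was how many transcripts differed between the hemispheres, and by how much. At an adjusted p under 0.05 (edgeR quasi-likelihood test with the batch as a block, Benjamini-Hochberg over all models) and at least a 2-fold difference, 437 models were vegetal-enriched, 3.01% of those tested. By the same rule 519 models were animal-enriched, or 3.58%. With no limit on size, 1922 models were higher (13.2%) and 2095 were lower (14.4%) in vegetal libraries, so 47.8% of these calls were vegetal. When library totals replaced the TMM factors, 1442 were higher and 2619 lower (35.5% vegetal). Without batch A_t2 the counts of any size were 797 and 914, and with no block they were 899 and 1130. Of the enriched models, 425 of 437 and 518 of 519 had the direction of the call in all 4 pairs. The calls were made on these same pairs, so this agreement is no independent result. The lowest vegetal library stood above the highest animal library for 392 of the 437, and the converse held for 455 of the 519; libraries of the hemispheres did not overlap for 3085 of all models tested.

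**Figure D1:**
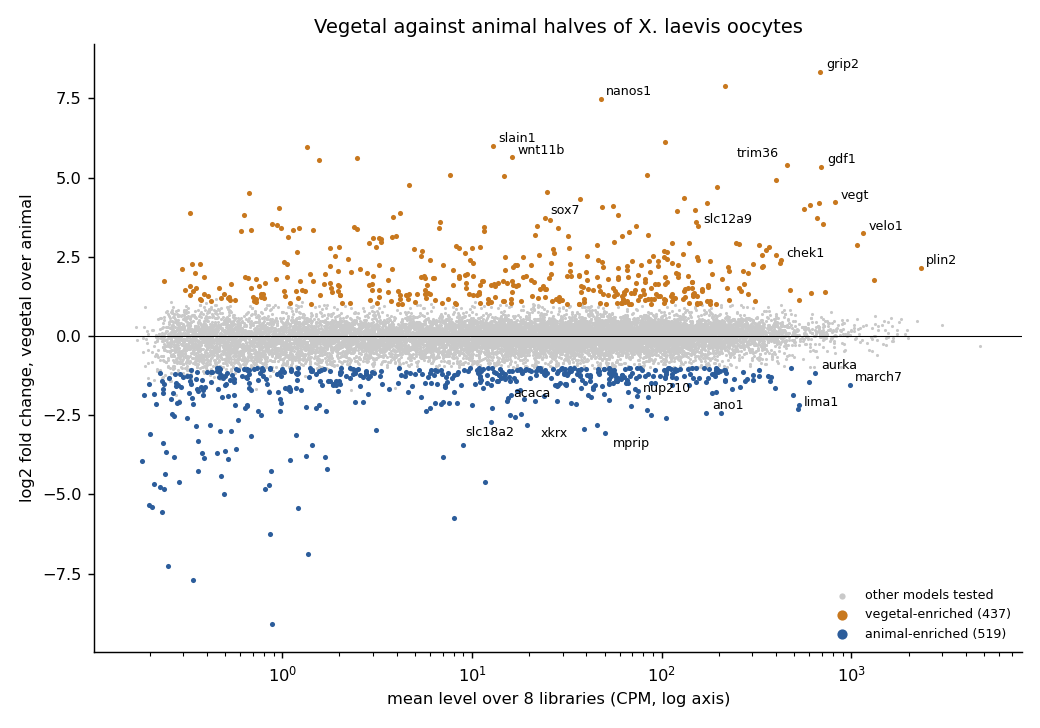
Each point is 1 of 14517 gene models, with its mean level over the 8 libraries (CPM, log axis) against its log2 fold change, vegetal over animal. The 437 vegetal-enriched models (orange) reach 8.35 at grip2 and spread over the range of levels, while the animal-enriched ones past -3 lie almost all at low levels and mprip, at -3.06, is among the few labelled there.

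Large vegetal enrichments were found at all levels, and large animal ones mostly at low levels. Of the models that averaged 5 CPM or more, 310 were vegetal- and 291 animal-enriched, but at least 8-fold the counts were 45 vegetal and 5 animal. At least 16-fold they were 22 and 2, and at least 32-fold 11 and 1. Over all models tested the same 3 limits gave 71 and 46, 28 and 23, and 14 and 10. The 71 vegetal models past 8-fold had a median mean level of 22.1 CPM, and the 46 animal ones a median of 0.498 CPM. Of these, 21 vegetal (29.6%) and 39 animal models (84.8%) had no gene symbol, against 21.0% of all models tested. At a mean above 500 CPM, 15 of 242 models were vegetal- and 5 were animal-enriched, and under 1 CPM the counts were 48 and 141 of 2178.

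The enriched models made up a small share of each library. The 437 vegetal-enriched models took 6.01% and 6.71% of the counts in the vegetal libraries of female A and 5.22% and 6.26% in those of female B, against 1.37% to 1.496% in the animal libraries. The 519 animal-enriched models took 1.06% to 1.36% of the counts in vegetal libraries, against 3.38% to 3.60% in animal libraries.

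**Figure D2:**
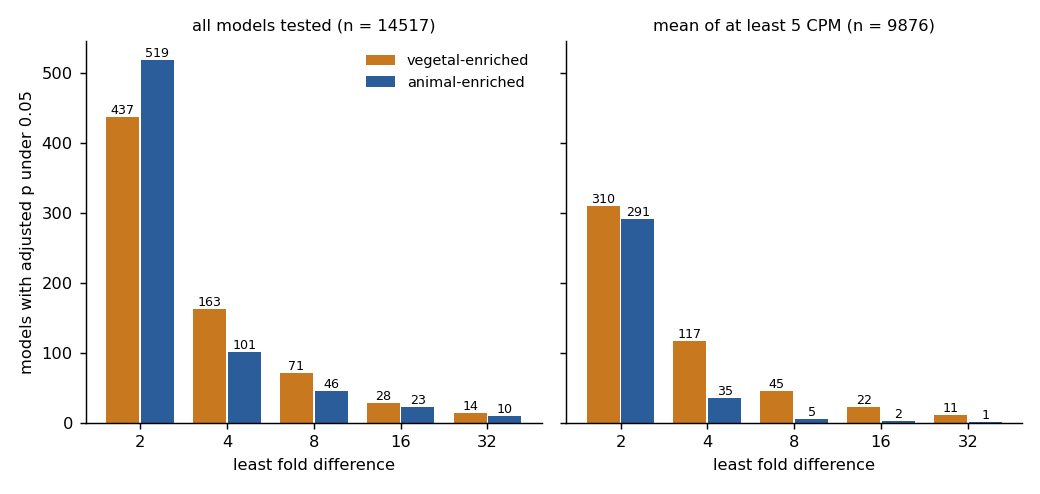
Bars count vegetal-enriched (orange) and animal-enriched (blue) models with an adjusted p under 0.05 at or past each fold difference on the x axis, for all 14517 models and for the 9876 averaging 5 CPM or more. In the right panel 45 vegetal and 5 animal models pass 8-fold.

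Of the 29 gene lists, germ plasm and germ cell mRNAs had the largest share of vegetal-enriched members. All 22 members found in the annotation passed the filter; 12 (54.5%, against 3.01% of all models) were vegetal-enriched and 1 (4.55%, against 3.58%) was animal-enriched. With no size limit 13 were higher, 6 lower and 3 not called, and the median log2 fold change was 2.17, against -0.01 for all models. The list rests on mRNAs already known to be vegetal, so its direction is no independent result. Per-library values below are given in the order A_t1, A_t2, B_t1 and B_t2.

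The PDZ domain protein grip2, whose mRNA is a germ plasm component, had 1221, 1784, 1014 and 1455 CPM in vegetal libraries, against 4.10, 4.66, 4.12 and 3.72 CPM in animal libraries. The germline translational repressor nanos1 had 45.1, 120, 119 and 94.6 CPM in vegetal libraries, against 0.415, 0.274, 0.761 and 0.612 CPM in animal libraries. The vegetal value of nanos1 in batch A_t1 was the lowest, and still stood far above each animal library. The log2 fold changes were 8.35 ± 0.16 (SE, 4 pairs; adjusted p = 4.12e-07, edgeR) for grip2 and 7.48 ± 0.26 (adjusted p = 2.65e-06, edgeR) for nanos1. The RNA-binding protein dazl, a translational activator of germ cells, had 181, 251, 95.4 and 121 CPM in vegetal libraries, higher in female A, against 4.93, 5.40, 4.66 and 3.21 CPM in animal libraries.

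The germ plasm RNA helicase ddx25, also called DEADSouth, had 825, 928, 503 and 842 CPM in vegetal libraries, against 26.3, 24.4, 26.3 and 22.6 CPM in animal libraries (4.93 ± 0.19). Library B_t1 was the lowest of the vegetal libraries for ddx25, as it was for grip2, dazl and trim36. The germ cell survival factor dnd1 had 196, 257, 269 and 277 CPM in vegetal libraries, against 10.4, 8.39, 18.3 and 13.4 CPM in animal libraries (4.35 ± 0.17), and its lowest vegetal library was A_t1. The kinesin linker sybu, or syntabulin, had 329, 510, 299 and 361 CPM in vegetal libraries, against 15.0, 11.9, 16.1 and 13.4 CPM in animal libraries (4.71 ± 0.20). None of the vegetal and animal values of these genes overlapped.

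The remaining vegetal members included several with smaller enrichments. The actin nucleator spire1 had 1005, 1266, 1232 and 1381 CPM in vegetal libraries, against 79.3, 81.3, 112 and 94.5 CPM in animal libraries, a 13.3-fold difference (3.74 ± 0.11). The Balbiani body protein velo1 had 2144, 2375, 1761 and 2090 CPM in vegetal libraries, against 223, 203, 252 and 206 CPM in animal libraries, a 9.45-fold difference (3.24 ± 0.13). For rbpms2, the RNA-binding protein Hermes, the vegetal libraries held 2047, 2302, 1837 and 1954 CPM, against 661, 592, 631 and 509 CPM in animal libraries, a 3.41-fold difference (1.77 ± 0.10). The animal level was thus 0.294 of the vegetal one for rbpms2, 0.106 for velo1 and 0.0750 for spire1, against 0.00308 for grip2. The microtubule-associated slain1 (6.01 ± 0.17), the germ plasm transcript pat (4.09 ± 0.16) and the reticulon rtn3 (2.57 ± 0.13) were also vegetal-enriched, and rbpms, the paralog of rbpms2, was higher by a factor of 1.94 at a mean near 1 CPM (0.96 ± 0.20, adjusted p = 0.0109, edgeR).

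Members that act in the piRNA pathway and nuage were not vegetal. The tudor protein tdrkh had 117, 130, 169 and 102 CPM in vegetal libraries, against 309, 252, 242 and 230 CPM in animal libraries (-1.01 ± 0.14, adjusted p = 0.00144, edgeR). This difference lay close to the 2-fold limit. The animal-enriched count of the germ plasm list was 0 with no replicate block, with DESeq2, without batch A_t1 and in female B alone. Lower by less than 2-fold were tdrd6 (-0.73), the Piwi protein piwil1 (-0.85) and the helicase ddx4, known as Vasa (-0.37); ddx4 overlapped between the hemispheres. The kinesin-2 subunit kif3b fell by 0.56 and rtn4 fell by 0.29 on the log2 scale. The polyadenylation regulator cpeb1 (0.25, adjusted p = 0.0788, edgeR), piwil2 (0.11) and tdrd7 (-0.10) were not called. The calls of ddx4 (adjusted p = 0.152), piwil1 (0.0765) and rtn4 (0.119) were lost with no replicate block, and without batch A_t2 those of rbpms (adjusted p = 0.0625, edgeR) and tdrd6 (0.0621) were lost as well. Without batch B_t1, cpeb1 was called (0.36, adjusted p = 0.00664, edgeR).

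Axis and germ layer mRNAs held ligands and transcription factors on the vegetal side, while most Wnt receptor and transducer mRNAs showed small differences. Of 32 tested members, 13 were vegetal-enriched (40.6%, against 3.01% of all models) and 3 animal-enriched (9.38%, against 3.58%); at any size 17 were higher (53.1%, against 13.2%) and 6 lower (18.8%, against 14.4%), 9 were not called, and the median log2 fold change was 0.47. This list too rests in part on mRNAs already known to be vegetal, so its direction is no independent result. Among the ligands, wnt11b had 29.8, 44.4, 26.5 and 26.2 CPM in vegetal libraries, against 0.440, 0.971, 0.825 and 0.372 CPM in animal libraries (5.65 ± 0.20). The TGF-beta family ligand gdf1, or Vg1, had 1314, 1745, 1065 and 1292 CPM in vegetal libraries, against 28.6, 27.2, 47.8 and 31.9 CPM in animal libraries (5.34 ± 0.25). The related gdf3, or Derrière, had 4.03, 7.20, 4.25 and 3.88 CPM in vegetal libraries, against 0.0733, 0.0996, 0.0634 and 0.131 CPM in animal libraries, where the values lay near the limit set by depth. The convertase pcsk6, which cleaves TGF-beta family precursors, differed by female in both hemispheres: 178, 228, 305 and 418 CPM in vegetal libraries, against 12.3, 12, 24.4 and 22.7 CPM in animal libraries (3.99 ± 0.13). The membrane-bound ligand efnb1 had a log2 fold change of 3.31 ± 0.21.

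Transcription factors of the list ranged from strongly vegetal to animal. The T-box factor vegt, a determinant of endoderm, had 1375, 1878, 1503 and 1472 CPM in vegetal libraries, against 65.4, 66.4, 120 and 89.0 CPM in animal libraries (4.23 ± 0.19). The repressor snai1 had 26.2, 33.3, 31.1 and 24.4 CPM in vegetal libraries, against 0.733, 0.672, 1.40 and 0.722 CPM in animal libraries (5.06 ± 0.19). The head factor otx1 had 81.9, 135, 204 and 188 CPM in vegetal libraries, against 10.6, 15.2, 19.6 and 20.4 CPM in animal libraries, with both hemispheres lower in female A (3.18 ± 0.10). Its paralog otx2, at 2.04, 2.59, 7.68 and 7.86 CPM in vegetal and 2.08, 2.37, 5.90 and 5.6 CPM in animal libraries, was not called (0.27, adjusted p = 0.175, edgeR). On the animal side the ectodermal factor foxi2 had 4.91, 7.55, 28.7 and 16.6 CPM in vegetal libraries, against 14.7, 23.1, 51.9 and 71.0 CPM in animal libraries. The foxi2 values of the hemispheres overlapped across females but not within a batch (-1.53 ± 0.19, adjusted p = 0.00085, edgeR; adjusted p = 0.172 with no replicate block). The epidermal factor grhl1 (-1.18 ± 0.15) and the Nodal antagonist dand5 (-1.35 ± 0.16) were the other animal-enriched members. The remaining factors and regulators were the RNA-binding protein bicc1 (2.93 ± 0.09), the Wnt effector tcf7l2 (1.72 ± 0.19, at a mean of 1.25 CPM) and sox3 (1.16 ± 0.16), all vegetal-enriched. Smaller differences were those of zic2 (0.35), the Nodal effector foxh1 (0.34) and the histone demethylase kdm5b (-0.32), and foxi1 (0.69) and creb1 (-0.17) were not called. The call of sox3 was lost with no replicate block (adjusted p = 0.0688, edgeR), as were those of zic2 (0.0773), foxh1 (0.489) and tcf7l1 (0.122). Without batch A_t2, axin1 (0.0814), zic2 (0.0853), foxh1 (0.0776) and kdm5b (0.101) were not called.

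In the Wnt branch of the list, the ligand wnt11b and the ubiquitin ligase trim36 had the largest differences. The effector tcf7l2, at a low level, was also vegetal-enriched (1.72). The ligase trim36, needed for dorsal axis formation in Xenopus, had 972, 1100, 585 and 937 CPM in vegetal libraries, against 20.7, 22.4, 24 and 16.2 CPM in animal libraries (5.41 ± 0.22). The transducer ctnnb1, or beta-catenin, was higher by 0.46 ± 0.07 and its partner tcf7l1 by 0.48 ± 0.09 on the log2 scale. The destruction complex members axin1 and apc fell by 0.40 and 0.69. The receptors lrp6 (0.01) and fzd7 (-0.07), the transducers dvl2 (-0.09) and dvl3 (-0.09) and the kinase gsk3b (0.26) were not called. For wnt11, a paralog of wnt11b that may share reads with it, the vegetal libraries held 1.85, 2.43, 0.531 and 0.618 CPM, against 2.17, 1.64, 0.0634 and 0.0875 CPM in animal libraries. Over both females wnt11 was not called (0.80, adjusted p = 0.213, edgeR). It was called by edgeR in a fit of female B alone (2.87, adjusted p = 0.000671) and without batch A_t1 (1.41, adjusted p = 0.0410). The animal values of wnt11 in female B lay near the limit set by depth, 0.0952 CPM in B_t1 and 0.0656 CPM in B_t2. The interaction of hemisphere and female for wnt11 was 2.70 (female B minus A, adjusted p = 1, edgeR).

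**Figure D3:**
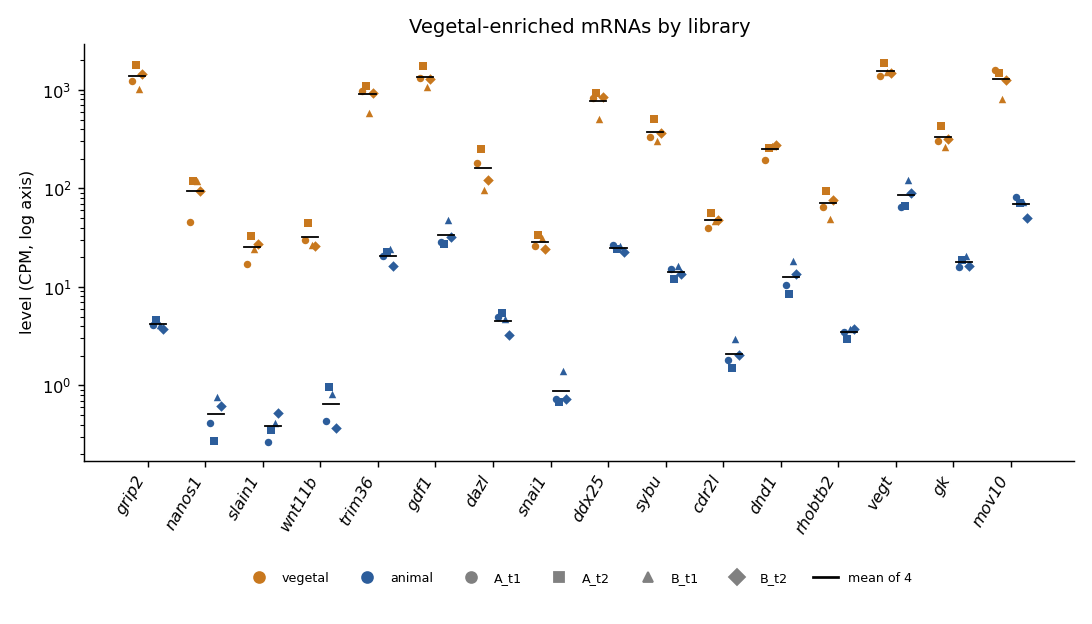
The 16 symbol-bearing vegetal-enriched genes with the largest fold change, an average of 5 CPM or more and the same direction in all 4 pairs, as CPM (log axis) in vegetal (orange) and animal (blue) libraries; marker shapes give the batch and lines the mean of 4. No vegetal value overlaps an animal value of the same gene, and nanos1 A_t1, at 45.1 CPM, is the vegetal point farthest below its group.

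Beyond the known germ plasm and axis mRNAs, the largest vegetal differences included genes of metabolism, RNA silencing and the cytoskeleton. Glycerol kinase, gk, had 306, 429, 266 and 321 CPM in vegetal libraries, against 15.8, 18.9, 20.5 and 16.1 CPM in animal libraries, an 18.4-fold difference (4.20 ± 0.15). The RNA helicase mov10, a partner of Argonaute proteins, had 1576, 1475, 801 and 1262 CPM in vegetal libraries, against 82.2, 71.5, 72.7 and 50.3 CPM in animal libraries (4.19 ± 0.20). The atypical GTPase rhobtb2 had 64.5, 93.7, 48.6 and 76.3 CPM in vegetal libraries, against 3.49, 2.99, 3.74 and 3.72 CPM in animal libraries (4.31 ± 0.20). All 3 had their lowest vegetal value in B_t1. The coiled-coil protein cdr2l had a log2 fold change of 4.54 ± 0.20.

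Lipid droplet and lipid enzyme mRNAs had called members in both directions. Of 43 tested members, 7 were vegetal-enriched (16.3%, against 3.01% of all models) and 2 animal-enriched (4.65%, against 3.58%); at any size 12 were higher (27.9%, against 13.2%) and 8 lower (18.6%, against 14.4%), and the median of -0.04 was near that of all models. The droplet coat protein plin2 had 3386, 4527, 3788 and 3484 CPM in vegetal libraries, against 937, 817, 816 and 814 CPM in animal libraries (2.16 ± 0.11). The long-chain acyl-CoA synthetase acsl1 had 1258, 1445, 777 and 1082 CPM in vegetal libraries, against 65.4, 57.2, 78.2 and 54.5 CPM in animal libraries, a 17.6-fold difference (4.14 ± 0.22). The other vegetal members were the elongase elovl1 (1.99), the cholesterol esterifying enzyme soat1 (1.95), the phospholipase pld1 (1.89), the lipoprotein receptor ldlr (1.5) and the triglyceride synthesis enzyme dgat2 (1.09). On the animal side acetyl-CoA carboxylase, acaca, which makes the building block of fatty acid synthesis, had 6.08, 4.31, 6.68 and 7.32 CPM in vegetal libraries, against 25.8, 22.1, 25.3 and 25.5 CPM in animal libraries (-2.04 ± 0.12). The elongase elovl7 had 153, 123, 165 and 161 CPM in vegetal libraries, against 428, 396, 384 and 382 CPM in animal libraries (-1.41 ± 0.10). These members act at different steps, and no direction of the pathway as a whole was measured.

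Motor and cytoskeleton genes differed one by one. Of 50 kinesin, dynein and dynactin genes, 3 were vegetal-enriched (6.0%, against 3.01% of all models) and 1 animal-enriched (2.00%, against 3.58%), with a median of 0.01. The minus-end directed kinesin kifc3 had 543, 698, 553 and 503 CPM in vegetal libraries, against 84.2, 78.3, 77.0 and 69.5 CPM in animal libraries (2.89 ± 0.10). The plus-end motors kif13b (2.36 ± 0.20) and kif1c (1.52 ± 0.12) were the other 2. The dynactin subunit dctn1 was the animal member, with 148, 137, 124 and 90.3 CPM in vegetal libraries and 348, 318, 196 and 194 CPM in animal libraries (-1.05 ± 0.11). The actin nucleation factor wasl was vegetal-enriched (1.52 ± 0.12). The formin diaph1 was animal-enriched, at 20.8, 12.6, 12.4 and 20.1 CPM in vegetal libraries, against 46.5, 44.8, 48.1 and 45.2 CPM in animal libraries (-1.52 ± 0.16).

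The animal-enriched genes with the largest differences at 5 CPM or more spanned a smaller range of fold changes than the vegetal ones. The myosin phosphatase partner mprip had 10.3, 6.65, 15.4 and 12.2 CPM in vegetal libraries, against 88.5, 77.0, 104 and 89.4 CPM in animal libraries, an 8.34-fold lower level (-3.06 ± 0.14). The actin cross-linking protein lima1 had 160, 124, 261 and 176 CPM in vegetal libraries, against 900, 793, 910 and 865 CPM in animal libraries (-2.32 ± 0.14). The smooth muscle protein smoothelin, smtn, had 55.7, 50.4, 80.1 and 75.7 CPM in vegetal libraries, against 313, 367, 342 and 358 CPM in animal libraries (-2.42 ± 0.13). In each of these the vegetal library of A_t2 was the lowest and that of B_t1 the highest, and the hemispheres did not overlap. The guanine nucleotide exchange factor mcf2l (-2.29 ± 0.15) also fell.

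Membrane proteins and enzymes were among the other animal-enriched genes named for their large fold change. Their share of all animal-enriched models was not counted. The calcium-activated chloride channel ano1 had 56.9, 31.4, 66.9 and 66.3 CPM in vegetal libraries, against 286, 231, 326 and 311 CPM in animal libraries (-2.43 ± 0.12). The XK-related protein xkrx had 8.63, 5.49, 11.6 and 10.9 CPM in vegetal libraries, against 72.7, 65.4, 67.6 and 68.0 CPM in animal libraries (-2.95 ± 0.18). The tyrosine phosphatase ptpn9 had 33.2, 22.0, 31.9 and 33.3 CPM in vegetal libraries, against 181, 181, 187 and 169 CPM in animal libraries (-2.59 ± 0.13). The mitochondrial outer membrane protein fam82a2, also called RMDN3, fell by 2.82, the ADP-dependent glucokinase adpgk by 2.56, the sulfotransferase chst10 by 2.51 and the lysosomal protein tmem192 by 2.36 on the log2 scale. The transcription elongation factor aff1 (-2.49), frmd8 (-2.33) and prr11 (-2.28) followed.

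Animal-enriched genes with the highest mean CPM were the ubiquitin ligase march7, lima1, the exonuclease exd2, tmem57 and the mitotic kinase aurka. Aurora kinase A, aurka, had 284, 323, 580 and 445 CPM in vegetal libraries, against 975, 913, 807 and 841 CPM in animal libraries (-1.17 ± 0.20, adjusted p = 0.00435, edgeR). Its vegetal level was lower in both batches of female A than in those of female B. The interaction of hemisphere and female for aurka was 0.94 (female B minus A, adjusted p = 1, edgeR). For march7 the vegetal libraries held 497, 401, 568 and 561 CPM, against 1522, 1314, 1535 and 1454 CPM in animal libraries (-1.53 ± 0.08). For exd2 they held 176, 154, 259 and 185 CPM, against 952, 837, 841 and 808 CPM in animal libraries (-2.18 ± 0.13). Neither gene overlapped between the hemispheres.

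**Figure D4:**
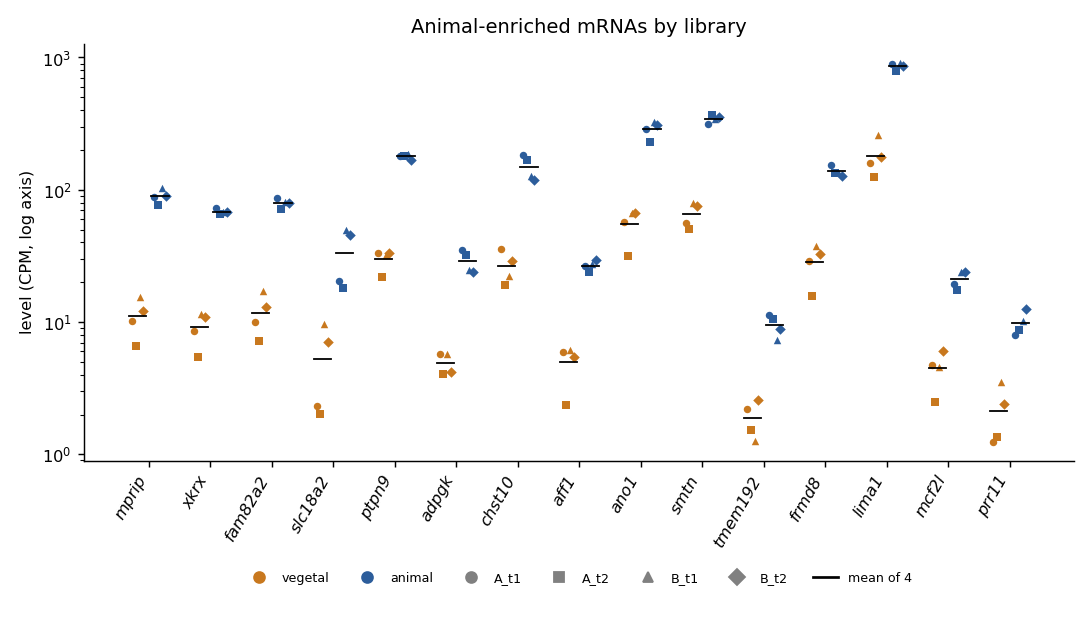
Animal-enriched genes with the largest fold change under the same rule (15 shown), as CPM (log axis) in vegetal (orange) and animal (blue) libraries; marker shapes give the batch and lines the mean of 4. The hemispheres do not overlap for any gene, and slc18a2 is higher in both hemispheres of female B.

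Nuclear pore and transport receptor mRNAs held few members higher in vegetal libraries. Of 47 genes tested, 0 were vegetal-enriched by edgeR and 6 animal-enriched (12.8%, against 3.58% of all models); at any size 2 were higher (4.26%, against 13.2%) and 17 lower (36.2%, against 14.4%). The median log2 fold change was -0.14, against -0.01. The pore membrane protein nup210 had 31.7, 25.9, 35.3 and 33.7 CPM in vegetal libraries, against 139, 120, 107 and 101 CPM in animal libraries (-1.88 ± 0.13). The import receptor tnpo1 had 37.5, 24, 25.4 and 34.2 CPM in vegetal libraries, against 110, 102, 107 and 89.8 CPM in animal libraries (-1.77 ± 0.14). The other 4 were the pore proteins nup214 (-1.28), nup93 (-1.20) and nup188 (-1.05) and the import receptor tnpo3 (-1.09). The 2 higher members were the importin kpna2 (0.45) and the exportin xpo6 (0.65). Across the alternatives the vegetal-enriched count of this list was 0, and the animal-enriched one lay between 4 and 7. The test against 2-fold is not among these, as lists were not counted under it.

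With all batches, solute carriers had a smaller vegetal-enriched share than all models. Their animal-enriched count moved with the batches, as did that of all models. Of 234 tested, 2 were vegetal-enriched (0.855%, against 3.01% of all models) and 11 animal-enriched (4.70%, against 3.58%); at any size 27 were higher (11.5%, against 13.2%) and 41 lower (17.5%, against 14.4%), with a median of -0.14. Batches A_t1 and B_t2 alone gave 6 vegetal and 9 animal of 240 tested, with a median of 0.02. Batches A_t2 and B_t1 alone gave 5 and 21 of 236, with a median of -0.26. Over all models these subsets gave 505 vegetal and 465 animal of 14798, and 517 and 1025 of 14660. The vesicular monoamine transporter slc18a2 had 2.33, 2.01, 9.75 and 7.07 CPM in vegetal libraries, against 20.3, 18.1, 49.99 and 45.5 CPM in animal libraries (-2.80 ± 0.16). Its paralog slc18a1 (-2.07 ± 0.11) may share reads with it. Transporters of ions and sugars on the animal side included the sodium-potassium-chloride cotransporter slc12a2 (-1.17) and the sodium-glucose transporter slc5a9 (-1.86). On the vegetal side the cation-chloride family member slc12a9 had 235, 314, 278 and 310 CPM in vegetal libraries, against 31.5, 27.7, 25.2 and 19.4 CPM in animal libraries, an 11.0-fold difference (3.46 ± 0.17).

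Few translation initiation factor mRNAs passed the 2-fold rule, as was the case for all models. Of 53 tested, 0 were vegetal-enriched by edgeR (3.01% of all models) and 1 animal-enriched (1.89%, against 3.58%). At any size 5 were higher (9.43%, against 13.2%) and 14 lower (26.4%, against 14.4%). Without batch A_t2 these counts were 0 and 8, while those of all models fell from 1922 and 2095 to 797 and 914. The cap-binding protein eif4e3 had 94.0, 82.5, 73.0 and 77.8 CPM in vegetal libraries, against 352, 300, 256 and 233 CPM in animal libraries (-1.79 ± 0.09). The scaffold subunit eif3b fell by 0.99, and eif4g3 fell by 0.78. The oocyte cap-binding protein eif4e1b was higher by 0.39. The list was matched by the start of the symbol and includes eif2c2, which encodes an Argonaute protein (-0.57).

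Most called splicing factors differed by less than 2-fold, as did most called models of the whole set. Of 103 tested, 28 were higher (27.2%, against 13.2%) and 11 lower (10.7%, against 14.4%), with a median of 0.17. By the 2-fold rule 2 were vegetal-enriched (1.94%, against 3.01% of all models) and 1 animal-enriched (0.971%, against 3.58%). The Sm-like protein lsm4 had 154, 152, 81.5 and 99.9 CPM in vegetal libraries, against 14, 12.2, 12.8 and 10.1 CPM in animal libraries (3.27 ± 0.16). The next, lsm14b (1.80), is an RNP granule protein rather than a splicing factor, and srsf12 was the animal member (-1.08). Without lsm4 and lsm14b the higher members lay between 0.22 and 0.68. Among the lower members were core spliceosome subunits, sf3b1 (-0.75) and prpf8 (-0.49). Without batch A_t2 the counts were 12 higher and 7 lower, while those of all models fell from 1922 and 2095 to 797 and 914. The median of the list was 0.08, 0.23, 0.35 and 0.10 in the 4 pairs, largest in B_t1.

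Spindle, lamin and checkpoint kinase mRNAs held 2 vegetal-enriched members (6.45%, against 3.01% of all models) and 1 animal-enriched (3.23%, against 3.58%). Of 31 tested, 10 were higher (32.3%, against 13.2% of all models) and 1, aurka, lower (3.23%, against 14.4%), with a median of 0.14. Without batch A_t2 these counts were 5 and 1, while those of all models fell from 1922 and 2095 to 797 and 914. The checkpoint kinase chek1 had 912, 853, 434 and 673 CPM in vegetal libraries, against 144, 140, 132 and 115 CPM in animal libraries (2.39 ± 0.16). The polo-like kinase plk3 had 600, 580, 650 and 963 CPM in vegetal libraries, against 124, 111, 187 and 147 CPM in animal libraries (2.29 ± 0.14). The other higher members were below 2-fold, among them lmnb1 (0.82), ttk (0.76), wee2 (0.66), plk1 (0.33) and cdk1 (0.40). DNA replication genes had 0 vegetal-enriched members of 46 by edgeR, against 3.01% of all models, and 3 animal-enriched (6.52%, against 3.58%). The 3 were the origin recognition subunits orc5 (-1.55 ± 0.13) and orc2 (-1.34 ± 0.09) and the helicase subunit mcm2 (-1.30 ± 0.07), while the helicase loader cdc6 was higher by 0.99. The vegetal-enriched count of the replication list was 1 with DESeq2, without batch A_t1, A_t2 or B_t2, and in female B alone.

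Cytosolic ribosomal protein and proteasome mRNAs had 0 enriched members by edgeR, where 3.01% of all models were vegetal- and 3.58% animal-enriched. The animal-enriched count of the proteasome list was 1 with library totals, without batch B_t1 and in female A alone. Of 70 mitochondrial ribosomal protein mRNAs, 0 were vegetal-enriched and 1 (1.43%) was animal-enriched, mrpl38 (-1.01), close to the 2-fold limit. The animal-enriched count of this mitochondrial list was 0 with no replicate block, with DESeq2 and without batch A_t1, A_t2 or B_t2. At any size, 2 of 76 cytosolic ribosomal protein mRNAs were higher (2.63%, against 13.2% of all models) and 0 lower (14.4% of all models), and of 34 proteasome mRNAs 1 was higher (2.94%) and 4 lower (11.8%). These counts depended on the batches. Without batch A_t1, 17 cytosolic ribosomal protein mRNAs were higher and 0 lower, and without A_t2 or without B_t2 both counts were 0. Batches A_t2 and B_t1 alone gave 53 higher and 0 lower, and A_t1 and B_t2 alone gave 2 higher and 17 lower. For proteasome mRNAs the counts without A_t1 were 6 higher and 3 lower. Over all models, 2070 were higher and 2171 lower without A_t1, 797 and 914 without A_t2, and 1175 and 1439 without B_t2. All models gave 2701 and 2849 with A_t2 and B_t1 alone, and 2317 and 2336 with A_t1 and B_t2 alone. Summed over the list, cytosolic ribosomal protein mRNAs took 19165, 23170, 27992 and 19494 CPM in vegetal libraries, against 22983, 19665, 18936 and 19647 CPM in animal libraries. The list's median log2 ratio was -0.25 in pair A_t1, 0.26 in A_t2, 0.56 in B_t1 and -0.02 in B_t2, so that the sign differed between the batches of each female.

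**Figure D5:**
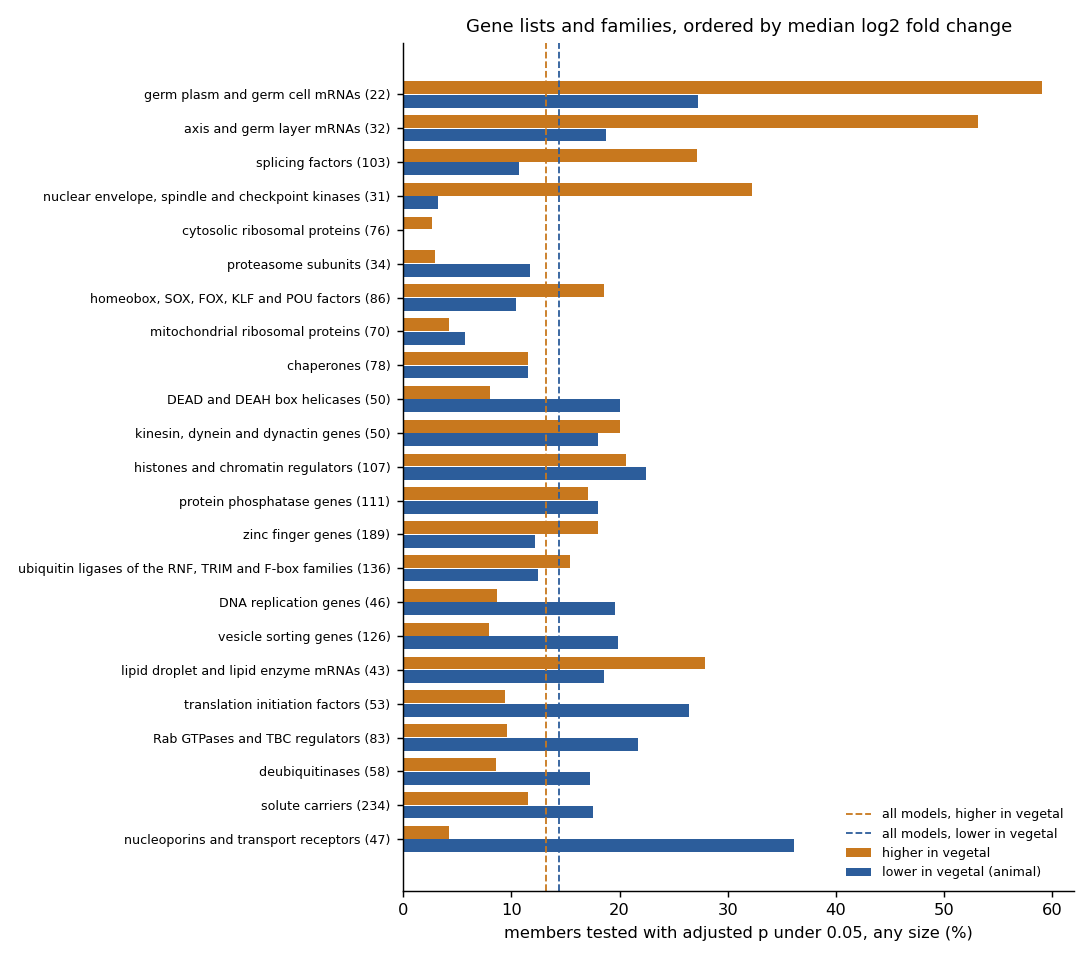
For each gene list or family shown (marker lists and 1 family are left out), bars give the share of tested members (number in brackets) higher (orange) or lower (blue) in vegetal libraries at an adjusted p under 0.05; dashed lines mark the shares of all models, 13.2% and 14.4%. Lists are ordered by their median log2 fold change, from germ plasm mRNAs at the top to nuclear pore and transport receptor genes at the bottom, where 4.26% were higher and 36.2% lower.

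Several of the largest differences belonged to models without a gene symbol. Model Xetrov72021968 had 316, 618, 415 and 360 CPM in vegetal libraries, against 1.39, 1.74, 2.32 and 1.68 CPM in animal libraries, a 236-fold difference (7.88 ± 0.18, adjusted p = 8.88e-07, edgeR). Model Xetrov72038877 had 224, 230, 130 and 235 CPM in vegetal libraries, against 2.20, 2.76, 3.17 and 3.37 CPM in animal libraries (6.14 ± 0.22). On the animal side Xetrov72026811 had 0.312, 0.185, 0.335 and 0.322 CPM in vegetal libraries, against 18.3, 15.5, 18 and 11.0 CPM in animal libraries, a 53.5-fold lower level (-5.74 ± 0.20). Model Xetrov72007477 had a log2 fold change of -3.84 ± 0.18. The files give these models no name or function.

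Some transcripts were counted in the animal libraries alone. Where 1 hemisphere had 40 counts or more in its 4 libraries together and the other had 0, 0 models were found in vegetal libraries and 8 in animal libraries. Of the 8, 7 had counts in all 4 animal libraries, and 1 had a symbol. The highest had 281 counts, or 1.77 CPM, in animal libraries, and a floor of 3 counts for the 4 vegetal libraries together (0.0194 CPM) makes its vegetal level at least 91.5-fold lower. With up to 3 counts allowed, the numbers were 2 for vegetal and 30 for animal libraries.

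The differences were compared between females and batches. The common biological coefficient of variation was 0.132. Across the 9876 models with at least 5 CPM, the log2 ratio of vegetal to animal correlated at 0.924 between pairs A_t1 and B_t2, at 0.884 between A_t2 and B_t1, at 0.889 between A_t2 and B_t2 and at 0.664, the lowest, between A_t1 and B_t1. It was 0.849 between the 2 batches of female A and 0.755 between those of female B (Pearson's r across genes, which are not independent replicates; the libraries of a pair share the batch). Pair B_t1 had the widest ratios, with 425 models more than 2-fold higher and 657 more than 2-fold lower in the vegetal library, against 320 and 273 in A_t1, 345 and 419 in A_t2 and 346 and 211 in B_t2. With batches A_t2 and B_t1 alone 1025 models were animal-enriched, against 465 with A_t1 and B_t2 alone. The vegetal count was 517 and 505 in these subsets. What differed between the batches is not given in the labels.

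Levels and hemisphere differences were then compared between the 2 females. Of the 9876 models, 464 (4.70%) differed at least 2-fold between females, by the mean CPM of each female with 0.5 added. By the fold change of the edgeR fit, a different measure, 604 (6.12%) differed at least 2-fold between hemispheres. The interaction of hemisphere and female passed for 0 models by edgeR (254 at an unadjusted p under 0.05, lowest adjusted p = 0.530) and for 4 by DESeq2 (144 at an unadjusted p under 0.05). The endodermal factor sox7 was one of the 4, with 66.7, 92.7, 12.1 and 11.0 CPM in vegetal libraries, against 2.86, 3.79, 1.62 and 1.99 CPM in animal libraries. Its vegetal level was thus 24-fold higher in female A and 6.42-fold higher in female B, with higher levels in both hemispheres of A. The mRNA export subunit thoc6 had 23.6, 24.5, 44.2 and 50.2 CPM in vegetal libraries, against 15.3, 14.9, 8.28 and 7.96 CPM in animal libraries, a 1.59-fold difference in A and a 5.81-fold difference in B. For thoc6 the interaction was 1.85 (adjusted p = 1.00e-05, DESeq2; 0.530, edgeR), and for sox7 it was -1.92 (adjusted p = 9.04e-05, DESeq2; 0.628, edgeR). Among enriched models, 280 of the 437 vegetal and 319 of the 519 animal ones had a smaller estimated difference in female B than in A, which was not tested. With 2 females, these differences are between 2 animals.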

How the data were processed

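Per the labels' protocols, hemispheres were dissected by hand and frozen, RNA was extracted with phenol-chloroform, and libraries followed Illumina protocols. The authors deposited raw read counts per gene model, with no normalization; the tools listed in the submitters' processing notes are Bowtie2 2.1.0, DESeq and edgeR. Build, counting program and strandedness are not given in the sources. Models carry X. tropicalis identifiers, so L and S homeologs have no separate values; of 109 named genes with a symbol, 52 have both copies in the RefSeq X. laevis v10.1 gene table. Symbols came from the deposited annotation table (14513 models, 51.5%); a second list of identifiers was not used. Overlapping genes, antisense genes and near-identical paralogs may share reads.

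Counts of the 8 libraries were analysed in R 4.3.3 with edgeR 4.0.16 (filterByExpr, TMM, quasi-likelihood test, batch as a block, Benjamini-Hochberg over 14517 models; 3 residual and 4.79 prior degrees of freedom). Standard errors of log2 fold changes derive from the F statistic, so they too use the moderated spread and not that of the 4 pairs alone. Log2 ratios of a pair used a prior count of 2. DESeq2 1.42.0 was an alternative. Other alternatives were RLE and library-total scaling, other filters, no block, summed batches, each replicate or female left out, and a test against 2-fold. The code was tested on simulated counts with known changes.

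The labels name the batch of both hemispheres, which pairs the libraries. Deviations from group means correlated between 0.668 and 0.885 in pairs of a batch, 0.742 and 0.868 between batches of a female, and -0.889 and -0.698 across females. Each mean covered both females, so positive values within a female bring negative ones across females. These values are no test of the batch pairing. Vegetal B_t1 correlated at 0.668 with its animal partner and at 0.784 with animal B_t2. Libraries of a group differed beyond sampling noise (chi-square per degree of freedom at least 11.3), so none was counted as a copy.

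Members, the 29 gene lists (20 by a symbol pattern) and the naming rule were chosen with earlier results of these data known. Named genes are, among enriched models with a symbol, at least 5 CPM and 1 direction in all 4 pairs, the 16 largest fold changes and the 5 highest CPM in each direction, and the largest of each list; every measured member of the germ plasm and axis lists; and 2 models without symbol in each direction. Other list members are examples chosen after their values were seen. Some genes are not reported here. No genome was used and no sequences are shown. Figures used matplotlib 3.10.9.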

Additional observations from a re-analysis of the deposited data

Results flagged for a closer look

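In groups of 4 libraries, 8 of the 226 vegetal and animal groups of named genes (3.54%) held 1 library far from the other 3 by Dixon's test, where chance gives about 1 in 20. Of the vegetal values, Xetrov72038877 was low in B_t1 at 130.5 CPM, against 224 to 235 CPM in the others, and Xetrov72026811 was low in A_t2 at 0.185 CPM (0.312 to 0.335). The TGF-beta family ligand gdf3 was high in A_t2 at 7.20 CPM (3.88 to 4.25), and the phosphatase ptpn9 low in A_t2 at 22.0 CPM (31.9 to 33.3). Of the animal values, snai1 was high in B_t1 at 1.40 CPM (0.672 to 0.733), bmp15 high in B_t1 at 112 CPM (107 to 108), plin2 high in A_t1 at 937 CPM (814 to 817) and acaca low in A_t2 at 22.1 CPM (25.3 to 25.8). In each of these genes the hemispheres did not overlap.

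The hemisphere effect differed between the females for 4 models in the DESeq2 interaction test, given here as the log2 effect in female B minus that in female A. It was 1.85 for thoc6, -1.92 for sox7, 2.00 for Xetrov72024553 and -1.24 for Xetrov72040830, and none of the 4 passed in edgeR. Model Xetrov72024553 had 7.87, 11.5, 22.0 and 15.1 CPM in vegetal libraries, against 9.94, 8.19, 5.01 and 3.61 CPM in animal libraries. Model Xetrov72040830 had 49.7, 60.6, 63.8 and 74.6 CPM in vegetal libraries, against 8.33, 9.04, 23.8 and 27.4 CPM in animal libraries, so that its animal level was higher in female B.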

How the results depend on the processing

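Among the 113 named genes no called direction reversed under the alternatives, and other models were not checked for reversal. The vegetal count of 437 and the animal count of 519 stayed within 1.5 times under most alternatives. The exceptions were a test against 2-fold (edgeR glmTreat), with 256 vegetal and 174 animal models, a minimum mean of 5 CPM, with 302 animal models, and batches A_t2 and B_t1 alone, an alternative chosen after seeing the data, with 1025 animal models. The first tests a larger difference and the second fewer models; the cause of the third was not tested. Leaving out each replicate in turn gave 393 to 473 vegetal and 384 to 615 animal models. With no replicate block the counts were 398 vegetal, of which 393 are among the 437, and 397 animal, and those of any size 899 and 1130. DESeq2 size factors moved the vegetal share of calls of any size to 52.9% and library totals to 35.5%. The hemisphere by female interaction passed for 4 models by DESeq2, against 0 by edgeR. Of 113 named genes, 8 lost their call with no replicate block (foxi2, sox3, tcf7l1, foxh1, zic2, rtn4, ddx4 and piwil1) and 1, foxh1, with library totals. Single replicates left out ended calls of axin1, ddx4, foxh1, kdm5b, piwil1, rbpms, rtn4, tdrd6 and zic2, whose differences were 2-fold or less. In female A alone 105 of 112 named genes kept their side of the threshold, and in female B alone 102 of 113. Depth limits statements on genes near 0.1 CPM, such as gdf3 in animal libraries and wnt11 in the animal libraries of female B.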

Other observations

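Further gene families showed single members apart from the rest. Among 189 zinc finger genes tested, 10 were vegetal-enriched (5.29%, against 3.01% of all models) and 6 animal-enriched (3.17%, against 3.58%). In a fit of models averaging at least 5 CPM, 3 of 129 zinc finger genes were vegetal- and 1 animal-enriched. All models of that fit gave 302 and 302 of 9877. At any size 34 of the 189 were higher (17.99%, against 13.2%) and 23 lower (12.2%, against 14.4%). With library totals these counts were 24 and 25, and those of all models 1442 and 2619. Of the vegetal ones znf519 had 17.9, 16.1, 6.34 and 14 CPM in vegetal libraries, against 3.27, 3.61, 3.77 and 3.30 CPM in animal libraries (1.89 ± 0.26), and the mRNA decay factor zfp36l2 was higher by 1.86. The transcriptional cofactor znf609 had 90.9, 73.1, 97.5 and 92.0 CPM in vegetal libraries, against 279, 278, 314 and 317 CPM in animal libraries (-1.75 ± 0.08). Among 86 homeobox, SOX, FOX, KLF and POU factors, 4 were enriched on each side (4.65%, against 3.01% and 3.58% of all models); six3 (2.07) was vegetal and pou2f1, or Oct-1, animal, with 5.91, 5.81, 9.02 and 9.30 CPM in vegetal libraries and 21.1, 27.8, 34.3 and 36.5 CPM in animal libraries (-1.998 ± 0.11).

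The following families are set against the shares of all models, 3.01% vegetal- and 3.58% animal-enriched. At any size 13.2% of all models were higher and 14.4% lower. The ubiquitin ligases lay near these any-size shares, with 15.4% higher and 12.5% lower. Vesicle sorting genes had 7.94% higher and 19.8% lower, and deubiquitinases 8.62% and 17.2%. Histones and chromatin regulators had 20.6% higher and 22.4% lower, and protein phosphatase genes 17.12% and 18.02%. Of 136 ubiquitin ligases of the RNF, TRIM and F-box families, 5 were vegetal-enriched (3.68%) and 4 animal-enriched (2.94%), among them fbxo25 (-1.33 ± 0.12). Of 126 vesicle sorting genes, 2 were vegetal-enriched (1.59%), the endosomal proteins stx12 (1.88 ± 0.11) and snx16 (1.75 ± 0.16), and 3 animal-enriched (2.38%), vps13d (-1.66 ± 0.15), snx27 (-1.53 ± 0.11) and the coat subunit sec24d (-1.02 ± 0.10). The Rab list held the Rab11 effector rab11fip4l, with 1295, 1641, 1214 and 1089 CPM in vegetal libraries, against 107, 102, 129 and 108 CPM in animal libraries (3.54 ± 0.14), while of the 83 genes 8 were higher (9.64%) and 18 lower (21.7%) at any size. Among 107 histones and chromatin regulators, 3 were enriched on each side (2.80%), with the Polycomb proteins cbx7 (2.68 ± 0.19) and cbx8 (1.64 ± 0.08) vegetal and the mitochondrial sirtuin sirt4 (-1.85 ± 0.14) animal. Of 111 protein phosphatase genes, 2 were vegetal-enriched (1.80%), the phosphatase-1 regulators ppp1r2 (2.51 ± 0.20) and ppp1r3b (1.35 ± 0.24), and 6 animal-enriched (5.41%), and of 58 deubiquitinases 1 was vegetal-enriched (1.72%), usp40 (1.47 ± 0.12), and 2 animal-enriched (3.45%), usp54 (-1.75 ± 0.10) and usp19 (-1.03).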
